A study of Homo sapiens with 20 samples.

Results

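AXL and 9 other receptor tyrosine kinases (TYRO3, MERTK, EGFR, ERBB3, MET, PDGFRB, FGFR1, IGF1R and ALK) were examined in human melanoma cells in which the transcription factor FRA1 was silenced. The 10 genes were chosen by name, with earlier results of these data known, so the counts below describe this set and do not test it. Each was present once among the 58870 genes of the RNA-seq count table, of which 19986 were protein-coding. FRA1 binding was examined in the 121 of 54563 consensus Cut&Run peaks that overlapped one of these genes or lay within 50 kb of it on either side. AXL was also singled out by the study on these samples, so its change is not independent evidence of a link to FRA1.

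The cells were A375 and 1205Lu, both established human melanoma lines, treated with non-targeting siRNAs (si-NT) or with siRNAs against human FRA1 (si-FRA1). RNA-seq had 3 samples in each of the 4 groups. Cut&Run, which maps where a protein sits on chromatin, had 3 samples with an antibody against FRA1 and 1 sample with a control IgG in each line. Nothing in the labels says that the samples came from separate cultures, so the p-values measure only the spread between these samples, which may be technical.

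Receptor tyrosine kinases are single-pass membrane proteins that pair up when a ligand binds, phosphorylate each other's tails and recruit adaptors that switch on the RAS-ERK and PI3K-AKT pathways. AXL, TYRO3 and MERTK form the TAM family, whose ligands are GAS6 and protein S, and in melanoma high AXL is a known mark of dedifferentiated, invasive cells. FRA1, the product of FOSL1, pairs with a JUN protein to form AP-1, which binds the 7-base sequence TGACTCA or its reverse complement TGAGTCA.

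Of the 121 peaks, 8 stood over IgG in both cell lines, at AXL, EGFR, FGFR1, IGF1R and ALK. Each of the 8 held at least 1 AP-1 sequence somewhere in its width, beside 57.7% of all consensus peaks. The share among all peaks over IgG in both lines was not computed. The sites of the strongest of the 8 at AXL, EGFR, IGF1R and ALK are shown because the binding results below turn on these peaks. Also shown is a site of the strongest peak at MET and at PDGFRB, which stood over IgG in A375 alone. The sites are given on the plus strand of GRCh38, with the AP-1 letters in capitals and 10 bases of context on each side. None lay in an untranslated region.

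AXL, chr19:41225693-41225719: tgtatatgtgTGAGTCAcggtgttttt
AXL, chr19:41225892-41225918: tccctctatcTGACTCAgggcgtgccc
AXL, chr19:41226182-41226208: gtgcccccggTGACTCAcgcgggggca
EGFR, chr7:55065301-55065327: gctttgctggTGACTCAtgcgctgtgt
EGFR, chr7:55065851-55065877: caagtgaagcTGAGTCAtatggcctct
IGF1R, chr15:98896973-98896999: ctcccgtcccTGAGTCAccactaaaat
IGF1R, chr15:98897220-98897246: atcagacgtgTGACTCAgcagactcca
ALK, chr2:29747966-29747992: aacgaaagaaTGAGTCAtgtgaatcct
ALK, chr2:29748237-29748263: ccaggatgtcTGAGTCAggacccatgg
MET, chr7:116777119-116777145: ggctttaataTGAGTCAtatcatctac
PDGFRB, chr5:150143473-150143499: acccatgtcaTGACTCAgctcagagaa

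The middle AXL site lay 20 bp from the centre of its peak and the first IGF1R site 30 bp from the centre of its own. The other AXL sites lay 179 and 310 bp away, the other IGF1R site 277 bp, and the EGFR and ALK sites 143 to 414 bp. For the sites shown, the distance was 139 bp at MET and 704 bp at PDGFRB. The AXL, EGFR, ALK and PDGFRB peaks lay in introns, and the IGF1R and MET peaks overlapped exons.

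FOSL1 mRNA was first checked as the target of the siRNAs. In A375 cells its level fell from 407 to 423 CPM (counts per 1000000 of the TMM-scaled library size) under si-NT to 25.6 to 26.0 CPM under si-FRA1, leaving 6.19%. In 1205Lu cells it fell from 477 to 491 CPM to 65.0 to 70.8 CPM, leaving 14.0%. The RNA-seq totals were 20573412 to 32518903 counts per sample. Of 7 melanocyte lineage markers, MITF and SOX10 were measured in both lines (means of 52.1 and 43.9 CPM in A375 and 3.54 and 912 CPM in 1205Lu with si-NT), whereas the pigment genes PMEL, MLANA, TYR, DCT and TYRP1 lay below 1.3 CPM in every group mean. The summed melanocyte markers were 95.8 to 99.99 CPM under si-NT and 95.8 to 103 CPM under si-FRA1 in A375, and 906 to 934 CPM and 781 to 799 CPM in 1205Lu. There the sum, which was mostly SOX10 under si-NT, was lower after silencing. Of the 4 melanocyte markers tested in each line, 2 rose (1 of them past a log2 fold change of 1) and 1 fell in A375, and 1 fell in 1205Lu. The epithelial markers EPCAM, KRT8 and KRT18, mostly KRT18 and with EPCAM at most 0.243 CPM in any sample, summed to 1568 to 1597.5 CPM under si-NT and 1463 to 1510 CPM under si-FRA1 in A375, and to 82.9 to 85.6 CPM and 95.6 to 103 CPM in 1205Lu. The sum was thus lower after silencing in A375 and higher in 1205Lu. Of the 2 epithelial markers tested in each line, 1 rose and 1 fell in A375, and 1 rose and 1 did not pass in 1205Lu. The 3 leukocyte markers summed to at most 1.501 CPM and the 3 endothelial markers to at most 2.72 CPM in any sample. The part of these markers in the receptor results was not tested.

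Silencing of FRA1 moved the receptors in different directions. A gene passed when edgeR's quasi-likelihood test gave an adjusted p (Benjamini-Hochberg, over all genes tested in that fit) under 0.05, and log2 fold changes are si-FRA1 over si-NT. In A375 cells 7 of the 9 receptors tested passed, with 2 higher (MERTK and PDGFRB) and 5 lower (AXL, TYRO3, EGFR, MET and IGF1R). Among all 13598 protein-coding genes tested in A375 the share that passed was 57.7%, with 29.9% higher and 27.8% lower, so passing was common among genes in general. In 1205Lu cells 8 of 10 passed, with 6 higher (EGFR, ERBB3, MET, PDGFRB, FGFR1 and IGF1R) and 2 lower (AXL and ALK), against a background of 47.0% of 13728 genes (24.0% higher and 23.0% lower). Only AXL in A375, and PDGFRB and ALK in 1205Lu, passed with an absolute log2 fold change over 1, which 5.29% and 2.97% of protein-coding genes did in the respective lines. The si-FRA1 samples all lay on one side of the si-NT samples for 7 of the 9 receptors tested in A375, against 62.8% of protein-coding genes, and for 9 of 10 in 1205Lu, against 55.1%.

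**Figure D1:**
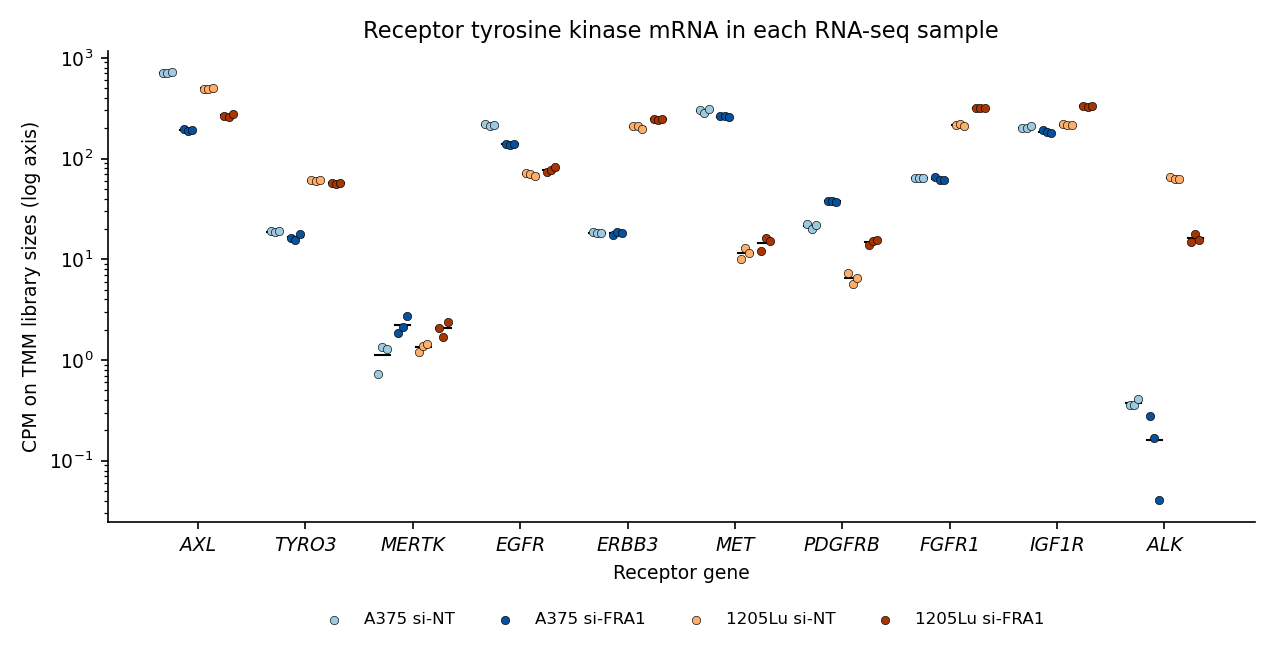
CPM of each receptor in each of the 12 RNA-seq samples on a log axis, coloured by cell line and treatment, with short black lines at the group means. The si-FRA1 samples of AXL and of ALK lay below their si-NT samples in both cell lines, and those of PDGFRB lay above. For ALK in A375 this order rests on counts too low to be tested.

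**Figure D2:**
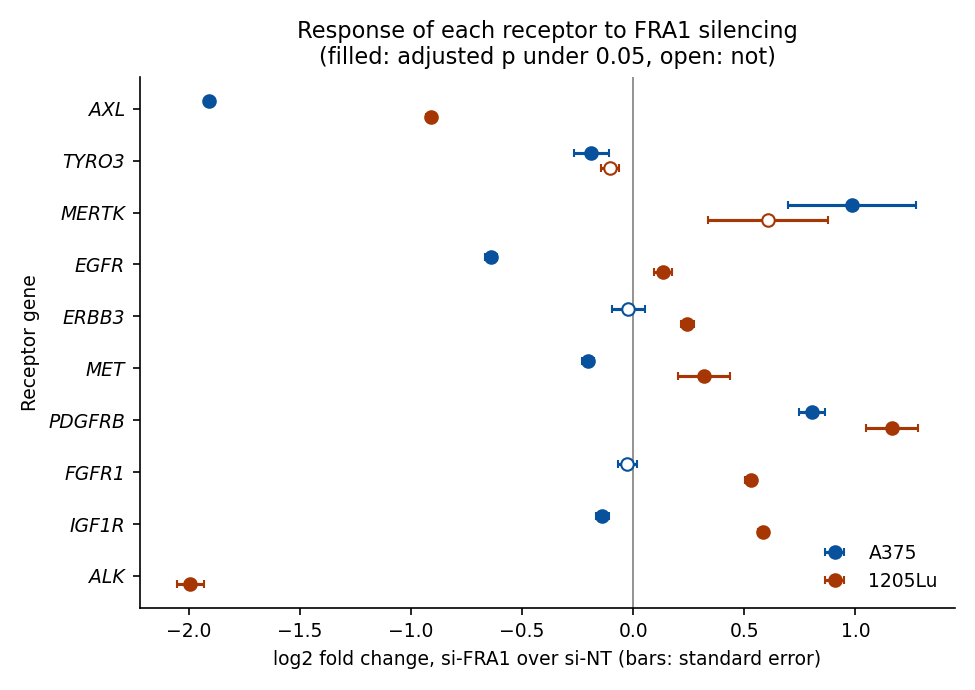
The log2 fold change of each receptor, si-FRA1 over si-NT, in A375 (blue) and 1205Lu (brown), with bars for the standard error and filled points where the adjusted p was under 0.05. AXL lay left of 0 in both lines and PDGFRB right of 0 in both, while EGFR, MET and IGF1R lay on opposite sides. ALK was not tested in A375.

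AXL (ENSG00000167601.12, plus strand of chromosome 19, 41219223 to 41261766) had the largest response of the receptors tested in A375 cells. Its level was 710, 712 and 720 CPM in the si-NT samples and 194, 188 and 191 CPM in the si-FRA1 samples. The groups were far apart, with 26.7% of the level left (log2 fold change -1.91, standard error 0.0208, edgeR adjusted p = 9.36e-27). In 1205Lu cells AXL stood at 494, 491 and 507 CPM under si-NT and at 267, 260 and 278 CPM under si-FRA1. Again no sample overlapped, and 53.3% was left (log2 fold change -0.91, standard error 0.0230, edgeR adjusted p = 1.01e-16). The line-by-treatment interaction, fitted on the 12 samples together, gave a log2 difference of 1.01 between the responses (1205Lu minus A375, standard error 0.0328, edgeR adjusted p = 7.31e-18), so AXL fell further in A375. FOSL1 itself was also reduced further in A375, and the part of this in the AXL difference was not tested. The samples are bulk RNA, in which fewer cells of a type and less RNA per cell cannot be told apart.

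Of the other TAM receptors, TYRO3 had smaller log2 fold changes than AXL in both lines, and MERTK rose in A375. TYRO3 stood at 19.1, 18.5 and 19.0 CPM in A375 with si-NT and at 16.2, 15.6 and 18.0 CPM under si-FRA1. All si-FRA1 samples were lower, but by little (log2 fold change -0.19, standard error 0.0785, edgeR adjusted p = 0.0479). The call was lost with edgeR adjusted p values of 0.0639 to 0.180 when A375 si-NT replicate 1, 2 or 3 or si-FRA1 replicate 1 or 2 was left out, and in DESeq2 (0.0894). In 1205Lu cells TYRO3 was 60.7, 59.3 and 61.6 CPM under si-NT and 57.5, 55.7 and 57.8 CPM under si-FRA1, and the difference did not pass (log2 fold change -0.10, edgeR adjusted p = 0.0554). Reads of TYRO3 are hard to separate from those of its processed pseudogene TYRO3P, which was listed at 47 to 112 counts in A375 (12.4% to 21.1% of the TYRO3 count) and at 30 to 77 counts in 1205Lu (2.25% to 5.36%).

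MERTK, the TAM receptor best known for clearing dying cells, was scarce in all samples. In A375 it had 16, 34 and 31 counts with si-NT and 61, 51 and 68 counts with si-FRA1, so the si-FRA1 samples were all higher. Its log2 fold change of 0.98 passed (standard error 0.289, edgeR adjusted p = 0.00645). In 1205Lu cells it had 36, 31 and 35 counts with si-NT and 43, 38 and 50 with si-FRA1, which did not pass (log2 fold change 0.61, standard error 0.269, edgeR adjusted p = 0.0817). The responses in the cell lines could not be told apart (interaction -0.37, standard error 0.396, edgeR adjusted p = 0.537), and neither could those of TYRO3 (interaction 0.10, standard error 0.0785, edgeR adjusted p = 0.388).

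EGFR, the receptor of EGF and TGF-alpha, moved in opposite directions in the lines. Its level in A375 was 221, 209 and 216 CPM under si-NT and 139, 137 and 140 CPM under si-FRA1. The si-FRA1 samples were all lower, with 64.1% left (log2 fold change -0.64, standard error 0.0271, edgeR adjusted p = 1.35e-15). In 1205Lu the level was 71.5, 69.8 and 67.8 CPM under si-NT and 73.6, 77.3 and 81.5 CPM under si-FRA1. This small rise passed (log2 fold change 0.13, standard error 0.0420, edgeR adjusted p = 0.0151) but not without si-NT replicate 3 (0.0513) or si-FRA1 replicate 3 (0.0845). The difference between the responses was 0.79 (standard error 0.0498, edgeR adjusted p = 3.2e-12).

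ERBB3, which has little kinase activity of its own and signals with other ERBB receptors after neuregulin binding, was more abundant in 1205Lu cells. It stood at 18.6, 18.1 and 18.2 CPM in A375 with si-NT and at 17.3, 18.6 and 18.4 CPM under si-FRA1, where the groups overlapped (log2 fold change -0.02, standard error 0.0743, edgeR adjusted p = 0.822). In 1205Lu cells it was 213, 208 and 196 CPM under si-NT and 247, 243 and 250 CPM under si-FRA1. All si-FRA1 samples were higher (log2 fold change 0.24, standard error 0.0288, edgeR adjusted p = 8.05e-07), and the interaction passed at 0.28 (standard error 0.0616, edgeR adjusted p = 0.000825).

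MET, the receptor of hepatocyte growth factor, showed the reverse distribution. In A375 it was 300, 286 and 314 CPM under si-NT and 262, 266 and 256 CPM under si-FRA1. All si-FRA1 samples were lower by a small amount (log2 fold change -0.20, standard error 0.0281, edgeR adjusted p = 1.6e-06). In 1205Lu cells MET was only 10.1, 13.1 and 11.5 CPM under si-NT and 12.2, 16.3 and 15.1 CPM under si-FRA1, and the groups overlapped. Its log2 fold change of 0.32 there (standard error 0.116, edgeR adjusted p = 0.0338) did not pass without si-NT replicate 1 (0.153) or 3 (0.0639) or si-FRA1 replicate 2 (0.179) or 3 (0.0968). The interaction was 0.54 (standard error 0.101, edgeR adjusted p = 0.000127).

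PDGFRB, the receptor of PDGF-B and a marker of mesenchymal cells, rose in both lines. In A375 it had 501, 506 and 533 counts under si-NT and 1229, 919 and 925 counts under si-FRA1, which came to means of 21.6 ± 1.39 and 37.8 ± 0.483 CPM (SD, n = 3). The groups were apart (log2 fold change 0.80, standard error 0.0603, edgeR adjusted p = 6.04e-11). In 1205Lu it was 7.33, 5.68 and 6.52 CPM under si-NT and 13.8, 15.1 and 15.7 CPM under si-FRA1. Here the level was 2.24 times that of si-NT (log2 fold change 1.16, standard error 0.116, edgeR adjusted p = 7.65e-08). The rise was larger in 1205Lu by 0.37 (standard error 0.121, edgeR adjusted p = 0.0212), which did not hold without 1205Lu si-NT replicate 2 (0.0760), 1205Lu si-FRA1 replicate 3 (0.0520) or A375 si-NT replicate 1 (0.0509).

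Fibroblast markers moved together with PDGFRB in A375. The summed level of COL1A1, COL3A1, DCN and PDGFRA was 13.5 to 14.5 CPM under si-NT and 33.8 to 35.9 CPM under si-FRA1, and none of the 4 was at 0 in a whole group. All 3 of them that were tested rose, COL3A1 most (log2 fold change 3.07, edgeR adjusted p = 1.58e-13). In 1205Lu cells, where PDGFRA made up most of it, the sum was 190 to 199 CPM under si-NT and 182 to 190 CPM under si-FRA1, and none of the 3 tested rose while PDGFRB did. The part of these markers in the PDGFRB result was not tested.

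FGFR1 and IGF1R rose in 1205Lu cells. FGFR1, a receptor of fibroblast growth factors, was 63.9, 63.9 and 64.1 CPM in A375 with si-NT and 65.2, 61.8 and 61.9 CPM under si-FRA1, which overlapped (log2 fold change -0.03, standard error 0.0415, edgeR adjusted p = 0.627). In 1205Lu it was 214, 222 and 212 CPM under si-NT and 314, 315 and 316 CPM under si-FRA1. The si-FRA1 samples stood 1.44 times as high (log2 fold change 0.53, standard error 0.0234, edgeR adjusted p = 3.94e-13), and the interaction was 0.57 (standard error 0.0419, edgeR adjusted p = 6.04e-11).

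IGF1R, the receptor of insulin-like growth factors, was 201, 199 and 209 CPM in A375 with si-NT and 194, 181 and 179 CPM under si-FRA1. All si-FRA1 samples were slightly lower (log2 fold change -0.14, standard error 0.0305, edgeR adjusted p = 0.0005). In 1205Lu it was 220, 216 and 214 CPM under si-NT and 331, 327 and 329 CPM under si-FRA1. The level there was 1.499 times that of si-NT (log2 fold change 0.58, standard error 0.0223, edgeR adjusted p = 4.37e-14). The responses thus had opposite signs and differed by 0.73 (standard error 0.0403, edgeR adjusted p = 2.23e-13).

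ALK, a receptor of the nervous system that is activated by the small ligands ALKAL1 and ALKAL2, had the largest response in 1205Lu cells. It was 65.5, 62.4 and 63.0 CPM under si-NT and 15.0, 18.0 and 15.5 CPM under si-FRA1, or 1405 to 1973 counts and 308 to 404 counts. The groups were far apart, with 25.1% left (log2 fold change -1.99, standard error 0.0616, edgeR adjusted p = 1.62e-15). In A375 cells ALK had 8, 9 and 10 counts with si-NT and 9, 4 and 1 counts with si-FRA1, too few to pass the filter of edgeR, and it was not tested there. The interaction fit, which kept it, gave -0.86 (standard error 0.512, edgeR adjusted p = 0.22), so a difference in response was not detectable at these counts.

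In all, 7 receptors (AXL, EGFR, ERBB3, MET, PDGFRB, FGFR1 and IGF1R) had a response that differed between the lines, against 38.7% of 14844 protein-coding genes, and in all 7 the 1205Lu value was the higher. Only AXL exceeded a log2 difference of 1, as 5.23% of protein-coding genes did, and it fell to just under that limit when 1205Lu si-FRA1 replicate 3 was left out (0.996). Among protein-coding genes 19.9% had a higher and 18.9% a lower response in 1205Lu.

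Before silencing, the lines carried different receptors. With si-NT, 9 of the 10 differed between the lines and 7 did so by an absolute log2 ratio over 1, against 81.8% and 38.9% of protein-coding genes. MET was 26.2-fold higher in A375 (log2 ratio of 1205Lu over A375 -4.71, standard error 0.0629, edgeR adjusted p = 9.8e-28), and EGFR and PDGFRB were 3.08-fold and 3.27-fold higher there. ERBB3 was 11.3-fold higher in 1205Lu (log2 ratio 3.49, standard error 0.0411, edgeR adjusted p = 7.39e-29), and TYRO3 and FGFR1 were 3.21-fold and 3.38-fold higher. ALK was 167-fold higher in 1205Lu (log2 ratio 7.38, standard error 0.143, edgeR adjusted p = 2.56e-24). AXL was 1.43-fold higher in A375 (log2 ratio -0.52, edgeR adjusted p = 6.31e-17). IGF1R differed by only 0.10 (edgeR adjusted p = 0.00393), a call that was lost without A375 si-NT replicate 1 (0.0712) or 2 (0.0788), and MERTK did not pass (0.25, edgeR adjusted p = 0.453).

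Levels of different receptors were compared per kb of exon. With si-NT in A375 the order was AXL (139 ± 1.05 CPM per kb, SD, n = 3), MET (41.5 ± 1.94), IGF1R (14.6 ± 0.391), EGFR (13.5 ± 0.358), FGFR1 (3.72), PDGFRB (3.02), TYRO3 (1.75), ERBB3 (1.56), MERTK (0.270) and ALK (0.0511), and no neighbours overlapped. After silencing, AXL at 36.6 to 37.9 CPM per kb overlapped MET at 35.4 to 36.8, PDGFRB stood above FGFR1, and ERBB3 and TYRO3 overlapped. In 1205Lu with si-NT AXL led with 96.9 ± 1.63 CPM per kb (SD, n = 3), followed by ERBB3 (17.6), IGF1R (15.5), FGFR1 (12.6), ALK (8.62), TYRO3 (5.62), EGFR (4.37), MET (at most 1.81), PDGFRB (0.913) and MERTK (0.323), all apart from their neighbours. After silencing AXL still led with 52.2 ± 1.71 CPM per kb (SD, n = 3), IGF1R (23.6) stood above ERBB3 (21.0), and ALK (2.19), PDGFRB (2.08) and MET (2.01) were no longer separable. The order depends on the length used: with the longest transcript in place of all exons, AXL still led in the 4 groups, but 2 to 6 members per group changed rank.

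The genes whose log2 CPM followed that of AXL most closely over the 12 samples, among 10802 protein-coding genes with a mean of at least 5 CPM, were RAB21 (Pearson r = 0.992), RAB15 (0.991) and MCM4 (0.991). FOSL1 had r = 0.955. The other receptors that reached this level lay between -0.465 (PDGFRB) and 0.285 (EGFR), and MERTK did not reach it. These values describe 12 samples that fall into 4 groups, so they mostly follow the group means.

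The wider receptor pathway was described by lists written from general knowledge. Of 34 other receptor tyrosine kinases, 23 were tested in each line. In A375 7 rose and 6 fell (median log2 fold change -0.04), and in 1205Lu 6 rose and 6 fell (median -0.16), beside medians of 0.01 and -0.00 over all protein-coding genes, of which 29.9% rose and 27.8% fell in A375 and 24.0% rose and 23.0% fell in 1205Lu. Those past a log2 fold change of 1 had group means of at most 6.82 CPM in the line concerned. In A375 they were TEK, the angiopoietin receptor (log2 fold change 2.05), PDGFRA (1.12) and CSF1R, the receptor of macrophage colony-stimulating factor (1.07), which rose, and KDR, a VEGF receptor (-1.35), and ERBB4 (-1.22), which fell. In 1205Lu they were FGFR3, which rose (1.08), and MST1R, the receptor of macrophage-stimulating protein, which fell (-1.48 on counts of 18 to 30 and 3 to 11). CSF1R lies next to PDGFRB on chromosome 5.

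Of 25 ligands of the 10 receptors, 18 were tested in A375, where 9 rose and 3 fell (median 0.12), and 15 in 1205Lu, where 4 rose and 1 fell (median -0.12), beside 57.7% and 47.0% of protein-coding genes that passed in either direction. GAS6, the ligand shared by the TAM receptors, was 4.16, 5.22 and 4.01 CPM in A375 with si-NT and 6.27, 6.13 and 5.42 CPM under si-FRA1, so it rose as AXL fell (log2 fold change 0.41, standard error 0.149, edgeR adjusted p = 0.0263). In 1205Lu it did not pass (-0.18, edgeR adjusted p = 0.36). PROS1, which encodes protein S, rose by 0.24 in A375 (edgeR adjusted p = 0.00123), and in 1205Lu its log2 fold change was 0.46 (edgeR adjusted p = 0.142). Past a log2 fold change of 1 were AREG, an EGFR ligand, which fell in A375 from 5.69 to 6.91 CPM to 1.38 to 1.99 CPM (log2 fold change -1.80, edgeR adjusted p = 1.16e-08), EGF, which rose there (1.26), and PTN, which fell in 1205Lu from 19.9 to 21.5 CPM to 9.09 to 10.5 CPM (-1.08, edgeR adjusted p = 3.52e-09). Both ALK ligands lay too low to be tested in either line.

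Of 24 adaptors and inhibitors of receptor signalling, 8 rose and 9 fell of 23 tested in A375 (median -0.06), and 12 rose and 2 fell of 21 tested in 1205Lu (median 0.16), beside the shares of protein-coding genes that rose and fell, 29.9% and 27.8% in A375 and 24.0% and 23.0% in 1205Lu. None reached a log2 fold change of 1 with a passing test in either line.

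FRA1 Cut&Run was then examined at the receptors. The A375 FRA1 samples had 3354095 to 5316527 reads in all consensus peaks and the 1205Lu FRA1 samples 583750 to 897407, against 383994 and 314569 in the IgG samples of the respective lines. Counts in 1205Lu FRA1 replicates 2 and 3 differed by about the sampling noise (over 8327 peaks with at least 50 reads in the pair, a chi-square statistic of 1.01 for each degree of freedom, p = 0.328), and they were counted as 1 sample in means and tests. With a minimum of 20 reads the chi-square statistic was 1.06 for each degree of freedom and the pair did differ (p = 1.07e-08), but every other 1205Lu pair differed more.

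A peak was taken to stand over IgG when no FRA1 sample had under 10 reads or under 4 times the IgG count plus 1, a rule without a p-value. In A375 78 of the 121 peaks did so (64.5%, against 57.4% of all peaks), and in 1205Lu 9 did (7.44%, against 7.09%). Both shares were close to the background. The gap between the lines moved with depth: with the A375 libraries thinned to the totals of 1205Lu the count in A375 was 11. In another setting the FRA1 and IgG samples of each line were scaled to that line's own mean total. This raised IgG relative to FRA1, and the count was 4 in A375 and 5 in 1205Lu. Without 1205Lu FRA1 replicate 1, the shallowest FRA1 library, 14 peaks stood over IgG in 1205Lu. The 8 peaks over IgG in both lines were 6.61% of the receptor peaks, against 4.5% of all peaks. By position, 24 of the 121 lay within 3 kb of an annotated start of the receptor, 56 in introns and 3 at exons, 15 upstream and 23 downstream, and for 89 the nearest protein-coding start was that of the receptor. None of the 5 peaks around TYRO3 was nearest to TYRO3.

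**Figure D3:**
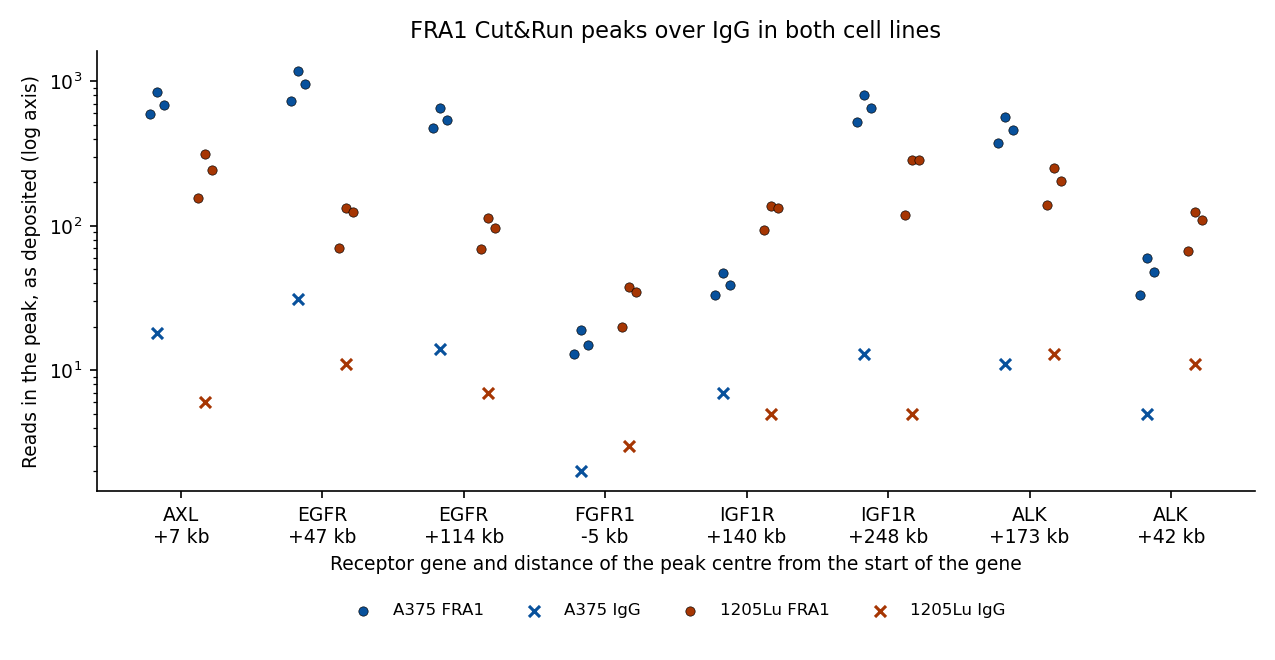
Reads as deposited, on a log axis, in each FRA1 sample (circles) and each IgG sample (crosses) of A375 (blue) and 1205Lu (brown) at the 8 receptor peaks that stood over IgG in both lines, named by gene and by distance of the peak centre from the gene's start. The AXL peak held 592 to 837 reads in A375 and 155 to 316 in 1205Lu, against IgG counts of 18 and 6.

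AXL had 6 peaks, 4 of them within 3 kb of an annotated start. The strongest in both lines (chr19:41225180-41226590) lay in an intron, its centre 0.870 kb upstream of an alternative AXL start and 6.66 kb downstream of the first start of the gene, and it held the 3 AP-1 sites shown above. It had 592, 837 and 687 reads in A375 (IgG 18) and 155, 316 and 242 reads in 1205Lu (IgG 6). In reads as deposited, the mean of the FRA1 samples was thus 37.1 and 31.0 times IgG plus 1. These ratios were not scaled for depth, and the FRA1 libraries exceeded the IgG library by more in A375 than in 1205Lu. Relative to each library's reads in peaks (TMM), it was higher in 1205Lu (log2 ratio 0.98, standard error 0.169, edgeR adjusted p = 5.55e-06), but without scaling it was lower there (-1.70), so the direction rests on the scaling. A neighbouring intronic peak (chr19:41222962-41224228) had 182, 249 and 221 reads in A375 (IgG 13), and its 15, 36 and 27 reads in 1205Lu (IgG 6) missed the rule. The peak closest to the first start (chr19:41220381-41222418) overlapped a later start, and its centre lay 2.18 kb downstream of the first. It had only 57, 65 and 56 reads in A375 (IgG 15) and 22, 25 and 20 in 1205Lu (IgG 23), where 1 of the 3 FRA1 samples stood above the IgG sample.

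**Figure D4:**
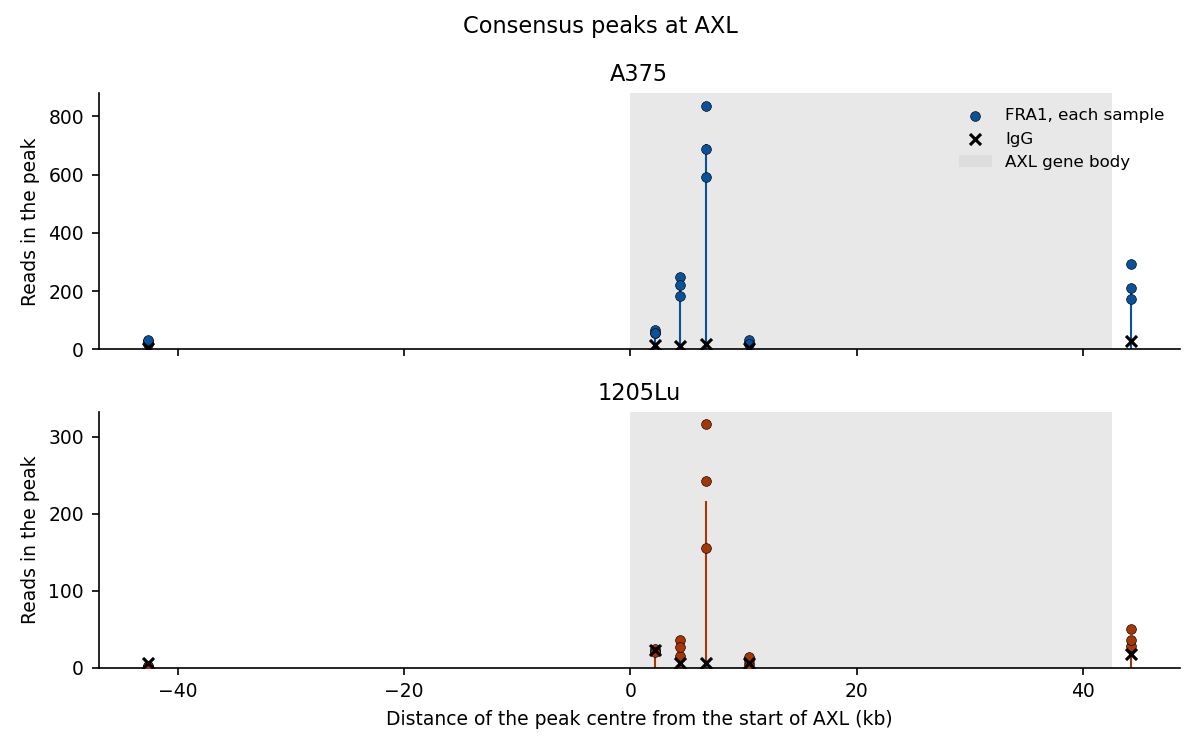
Reads as deposited in the 6 consensus peaks around AXL, in A375 (top) and 1205Lu (bottom), against the distance of the peak centre from the first start of AXL in kb. Circles are FRA1 samples, lines their means, crosses the IgG sample, and the grey area the gene body. The peak at 6.66 kb was the tallest in both lines.

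EGFR had 13 peaks and none within 3 kb of a start. Its strongest (chr7:55064895-55066251, an intron 46.6 kb downstream of the gene's start) had 730, 1183 and 960 reads in A375 (IgG 31), the highest of all receptor peaks, and 70, 132 and 125 in 1205Lu (IgG 11). The relative difference of -0.57 (standard error 0.187, edgeR adjusted p = 0.0101) did not pass when 1205Lu FRA1 replicate 1 was left out (-0.11, adjusted p = 0.558) or when any single A375 sample was (0.0647 to 0.103). A further intronic peak (chr7:55132514-55134054) had 476, 656 and 544 reads in A375 (IgG 14) and 69, 114 and 96 in 1205Lu (IgG 7). It showed no difference that passed (log2 ratio 0.01, edgeR adjusted p = 0.973), although it did without 1205Lu FRA1 replicate 1 (0.38, edgeR adjusted p = 0.0449).

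IGF1R had 23 peaks, 7 of them within 3 kb of an annotated start. The strongest in both lines (chr15:98896225-98897688) spanned an alternative start inside the gene, 248 kb downstream of the first one. It had 527, 806 and 653 reads in A375 (IgG 13) and 119, 286 and 284 in 1205Lu (IgG 5), with a relative log2 ratio of 0.97 (standard error 0.185, edgeR adjusted p = 2.79e-05) that turned to -1.71 without scaling. Another intronic peak (chr15:98788096-98789281) was the reverse in raw reads, with 33, 47 and 39 in A375 (IgG 7) and 93, 137 and 133 in 1205Lu (IgG 5) despite the lower depth of 1205Lu (log2 ratio 4.22, standard error 0.182).

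ALK had the most peaks, 24, with 1 within 3 kb of an annotated start. Its strongest (chr2:29747745-29749041, an intron) had 376, 562 and 458 reads in A375 (IgG 11), where ALK mRNA was near 0, and 139, 252 and 205 in 1205Lu (IgG 13), where it was measured. The relative log2 ratio was 1.35 (standard error 0.162, edgeR adjusted p = 3.99e-09) and became -1.34 without scaling. The other shared peak (chr2:29878723-29879787, an intron 42.3 kb from the gene's start) had 33, 60 and 48 reads in A375 (IgG 5) and more in 1205Lu in raw reads, 67, 125 and 109 (IgG 11). The shared FGFR1 peak (chr8:38473125-38473603), 4.53 kb upstream of the gene, was weak in both lines, with 13, 19 and 15 reads in A375 (IgG 2) and 20, 38 and 35 in 1205Lu (IgG 3). The FGFR1 peak with the most reads (chr8:38385836-38386742), downstream of the gene and nearest to the start of LETM2, had 118, 167 and 140 reads in A375 (IgG 8) and 23, 41 and 32 in 1205Lu (IgG 12), which missed the rule there.

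The remaining receptors had no peak over IgG in both lines. The strongest MET peak (chr7:116776302-116778240) had 529, 882 and 654 reads in A375 (IgG 18) and 26, 51 and 48 in 1205Lu (IgG 8), and the one at the first MET start (chr7:116671818-116673221) had 175, 253 and 223 in A375 (IgG 16) and 15, 18 and 14 in 1205Lu (IgG 11). The strongest PDGFRB peak (chr5:150141673-150143891, an intron) had 589, 868 and 704 in A375 (IgG 16) and 38, 45 and 44 in 1205Lu (IgG 19). Both the strongest peaks were lower in 1205Lu also relative to the library (log2 ratios -1.47 and -1.43, edgeR adjusted p = 2.94e-07 and 1.99e-07). For ERBB3 the peak at its starts (chr12:56079117-56080270) had 115, 178 and 138 reads in A375 (IgG 16) and 13, 30 and 19 in 1205Lu (IgG 12), with no difference relative to the library that passed (log2 ratio -0.25, edgeR adjusted p = 0.449). The strongest ERBB3 peak (chr12:56115598-56116889), downstream of the gene and nearest to the start of RPL41, had 203, 333 and 300 reads in A375 (IgG 28) and 23, 48 and 38 in 1205Lu (IgG 10). MERTK held the only peak over IgG in 1205Lu alone (chr2:111986292-111986799, an intron), with 4, 4 and 3 reads in A375 (IgG 0) and 27, 48 and 52 in 1205Lu (IgG 4, log2 ratio 6.02, edgeR adjusted p = 6.83e-17). The strongest MERTK peak in A375 (chr2:111974800-111975996) overlapped an exon and had 52, 96 and 87 reads there (IgG 6) and 14, 12 and 8 in 1205Lu (IgG 7). Around TYRO3 the strongest peaks were chr15:41603976-41604649 in A375 (80, 112 and 80 reads, IgG 8) and chr15:41605836-41607533 in 1205Lu (21, 10 and 12 reads, IgG 13), both downstream and nearest to the start of MGA. The second EGFR, IGF1R and ALK peaks and the shared FGFR1 peak were chosen for description after their values were seen.

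Of the 119 peaks tested between the lines, 27 (22.7%) were higher in A375 and 27 in 1205Lu relative to the reads in peaks, against 25.9% and 22.5% of all 53281 peaks tested. Without scaling the counts were 103 and 4, so the counts for single receptors hold for the TMM scale. MET had the most peaks higher in A375 (9 of 16, with 1 higher in 1205Lu), followed by EGFR (6 of 13, with 1), PDGFRB (3 of 5, with none) and ERBB3 (2 of 12, with 1). More were higher in 1205Lu for ALK (7 of 23, with 3 higher in A375), MERTK (5 of 8, with none), IGF1R (5 of 22, with 4), AXL (3 of 6, with none), TYRO3 (2 of 5, with none) and FGFR1 (2 of 9, with none). Only 9 of the 121 receptor peaks stood over IgG in 1205Lu, so most of the 27 higher there did not. Peaks over IgG in 1205Lu numbered 2 for ALK, 1 for MERTK, 2 for IGF1R, 1 for AXL, 0 for TYRO3 and 1 for FGFR1.

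The AP-1 sequence was found anywhere in 72 of the 121 peaks (59.5%), beside 57.7% of all consensus peaks and 12.9% of windows of the same length 2000 bp away from the peaks. Within 100 bp of the peak centre it was found in 30 (24.8%, against 28.6% of all peaks). GGAATGT on either strand, a sequence bound by TEAD factors, was found in 26 (21.5%, against 17.7%). The receptor peaks therefore held these letters about as often as peaks in general, and a match describes the letters only.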

How the data were processed

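The receptors and gene lists were chosen with earlier results of these data known. RNA-seq was measured in 12 samples and Cut&Run in 8. For RNA-seq the authors trimmed adapters, aligned reads to GRCh38 with STAR 2.7.7a and estimated gene reads with RSEM 1.3.0 on Gencode 30; the deposited expected counts were whole numbers, so rounding changed none. For Cut&Run the authors aligned reads with Bowtie2 2.4.1, called peaks with MACS2 and deposited the raw count of each sample in each consensus peak; the calling unit, single or pooled samples, is not given in the sources used here.

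Each line was fitted alone with edgeR 4.0.16 (R 4.3.3; filterByExpr, TMM, glmQLFit and glmQLFTest, Benjamini-Hochberg adjustment); interaction and si-NT ratios used all 12 samples, and peak differences used the FRA1 samples alone. CPM are on TMM library sizes, divided by the union of exons for levels per kb. Starts and exons came from GENCODE 44, and motifs were searched on both strands with pysam 0.24.0. Named were the 10 receptors, FOSL1, list genes that passed with an absolute log2 fold change over 1, GAS6, PROS1, the 3 genes most like AXL, and each receptor's strongest peak per line, with promoter peaks described in part. The tests were tried on simulated data. Alternatives were DESeq2 1.42.0, upper-quartile or no scaling, other filters, one fit of all samples, a replicate block, other limits over IgG and distances, and each sample left out. Standard errors are the absolute log2 fold change divided by the square root of edgeR's F statistic. For the receptors tested in A375 they were 0.0208 to 0.289. Not in the count table under these names were LMTK3 and IGF2.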

Additional observations from a re-analysis of the deposited data

Results flagged for a closer look

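The response to FRA1 silencing differed between the cell lines, by the interaction of cell line and treatment in edgeR's quasi-likelihood test, for 7 receptors. The log2 response in 1205Lu minus that in A375 was 1.01 for AXL, 0.79 for EGFR, 0.73 for IGF1R, 0.57 for FGFR1, 0.54 for MET, 0.37 for PDGFRB and 0.28 for ERBB3. All 3 samples of each group shared the direction of the response for AXL, PDGFRB, EGFR and IGF1R in both lines. The cause of these differences was not tested. The FOSL1 mRNA left after silencing also differed, at 6.19% in A375 and 14.0% in 1205Lu, and its part in the receptor differences was not tested. Samples standing apart within a group were not looked for, since each group had 3 samples.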

How the results depend on the processing

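The log2 fold changes of AXL in both lines, of PDGFRB in both lines and of ALK in 1205Lu kept their direction and their side of the threshold under every alternative run. Leaving out 1 sample gave -1.92 to -1.89 for AXL in A375, -0.93 to -0.88 for AXL in 1205Lu and -2.07 to -1.94 for ALK in 1205Lu. The number of receptors past a log2 fold change of 1 in A375 was 2 in place of 1 with upper-quartile normalization, without a filter and with the replicate block, and 1 to 2 with a sample left out, the second being MERTK. The number whose response differed by over 1 was 0 in DESeq2 and with upper-quartile normalization, and 0 to 1 with a sample left out. Other values that crossed 0 were small: ERBB3 in A375 was 0.0030 without a filter and -0.042 to 0.013 with a sample left out, and the si-NT ratio was -0.015 for IGF1R without a filter and -0.0019 to 0.38 for MERTK with a sample left out. Receptor peaks over IgG numbered 39 in A375 and 5 in 1205Lu at 8 times IgG, and 18 in 1205Lu at 2 times. With FRA1 and IgG totals made equal within each line they numbered 4 in A375 and 5 in 1205Lu. They numbered 11 in A375 when thinned (chosen after the data were seen), and 9 to 14 in 1205Lu with a sample left out. Without scaling, 103 peaks were higher in A375 and 4 in 1205Lu, and the ratios turned to -1.70 for AXL, -2.68 for the second EGFR peak, -1.71 for IGF1R at 98896225 and -1.34 for ALK at 29747745. The second EGFR peak, near 0, was also -0.094 with library totals, -0.0061 without a filter, and -0.026 to 0.38 with a sample left out. The cause of these changes was not tested.

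Samples with the same replicate number did not deviate together (correlations of -0.0410 to 0.0496 in RNA-seq and -0.0475 to 0.0006 in Cut&Run), so no pairing by number was seen. Such values cannot show whether samples with the same number were prepared together. A replicate block left 2 receptors past the fold limit in A375, and with it TYRO3 in A375 (adjusted p = 0.0524) and the first EGFR peak (0.0639) did not pass. ALK in A375 had 1 to 10 counts and gave no test.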

Other observations

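Peaks higher in a line were set beside the line in which the receptor's mRNA was higher, a comparison chosen after the values were seen and described without a test. The 3 receptors whose mRNA was higher in A375 by a log2 ratio over 1 (EGFR, MET and PDGFRB) had 34 tested peaks, of which 52.9% were higher in A375 and 5.88% in 1205Lu, relative to the reads in peaks. The 4 receptors whose mRNA was higher in 1205Lu by that much (TYRO3, ERBB3, FGFR1 and ALK) had 49 tested peaks, with 10.2% higher in A375 and 24.5% in 1205Lu. The remaining 3 (AXL, IGF1R and MERTK) had 36 tested peaks, with 11.1% higher in A375 and 36.1% in 1205Lu, a larger 1205Lu share than that of the receptors with more mRNA in 1205Lu. Among all peaks 25.9% and 22.5% were. Peaks of 1 gene share its locus and are not independent, and without scaling 103 of the 119 receptor peaks were higher in A375. Most of the 27 receptor peaks called higher in 1205Lu did not stand over IgG there, as only 9 of all 121 did.

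A peak over IgG in both lines stood beside falls and rises alike. Of the 5 receptors with such a peak, AXL and ALK fell in 1205Lu and EGFR, FGFR1 and IGF1R rose, while in A375 AXL, EGFR and IGF1R fell, FGFR1 did not pass and ALK was not tested. Of the 5 without one, 3 rose in 1205Lu and none fell, and in A375 2 rose and 2 fell. Among all protein-coding genes tested 24.0% rose and 23.0% fell in 1205Lu, and 29.9% rose and 27.8% fell in A375. The grouping rests on the rule over IgG, whose counts moved with scaling, and was not tested.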
